A study of Homo sapiens with 6 samples.

Results

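The IL-1 family genes of AsPC-1 cells were examined, namely the ligands IL1A, IL1B, IL18 and IL33, the antagonist IL1RN, the receptors IL1R1, IL1RAP and IL1R2, the adaptor MYD88 and the kinase IRAK1. These 10 genes were taken by symbol from a table of 58735 genes, and 8 of them had enough reads to be among the 15319 genes tested. AsPC-1 is an established human pancreatic cancer cell line. Cells labelled with a wild-type genotype were infected with an empty lentivirus (Vector, n = 3), and cells labelled as overexpressing received a lentivirus with the cDNA of MMP28, which encodes an extracellular protease of the matrix metalloproteinase family (OE-MMP28, n = 3). By the study's methods the overexpression virus also carried GFP and puromycin resistance, and stably infected cells were selected with puromycin, with no cloning step described. Whether the 3 libraries of a group came from separate cultures is not stated, so p-values measure the spread between these libraries, which may be technical.

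IL-1α and IL-1β, the products of IL1A and IL1B, bind the receptor IL1R1, which then pairs with the accessory chain IL1RAP and recruits MYD88 and kinases of the IRAK family. The signal reaches NF-κB and MAP kinases and switches on genes of chemokines and of NF-κB feedback. IL-1β and IL-18 are made as inactive precursors that caspase-1 cleaves, whereas IL1RN encodes a secreted protein that occupies IL1R1 without signalling, and IL1R2 encodes a decoy that binds IL-1 without passing on a signal. In pancreatic cancer, IL-1 from tumour and immune cells is known to act on fibroblasts and on the tumour cells themselves.

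IL1A and IL1B fell in the OE-MMP28 group, IL18 and IL1RAP rose, and IL1RN, IL1R1, IRAK1 and MYD88 did not pass an adjusted p of 0.05. The test was edgeR's quasi-likelihood test on the read counts with Benjamini-Hochberg adjustment over all genes tested, and it called 4 of the 8 members tested, against 23.4% of all genes. By direction, 2 members were higher, against 11.7% of all genes, and 2 were lower, against 11.6%. The FPKM values of the groups (fragments per kilobase of gene model, scaled to library size, a level that can be compared between genes) did not overlap for 5 members, against 38.1% of all genes. The members' median log2 fold change, OE-MMP28 minus Vector, was 0.39, and that of all genes tested was 0.014. The threshold of the study was an unadjusted p under 0.05 with an absolute log2 fold change over 1. Applied to the edgeR fit, it called IL1A and IL1B, against 8.5% of all genes in either direction and 5.05% as lower. The study's methods name limma instead, so these calls are not the study's own list.

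The members differed widely in level. On the FPKM scale 3 members, IL18, IRAK1 and MYD88, had a mean of at least 10 in both groups, whereas IL1A, IL1B, IL1RN, IL1R1 and IL1R2 had means under 1 in both. In the Vector group the order of the means was IL18, IRAK1, MYD88, IL1RAP, IL1B, IL1A, IL1RN, IL1R1 and IL1R2. The ranges of IL18 and IRAK1 overlapped there, the wide range of IL1B overlapped those of IL1RAP, IL1A, IL1RN and IL1R1, and the ranges of IL1RN and IL1R1 overlapped each other. In the OE-MMP28 group the order was IL18, IRAK1, MYD88, IL1RAP, IL1RN, IL1R1, IL1A, IL1B and IL1R2, and the ranges of IL1RN and IL1R1 and those of IL1A, IL1B and IL1R2 overlapped. IL33 was not detected in either group.

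**Figure D1:**
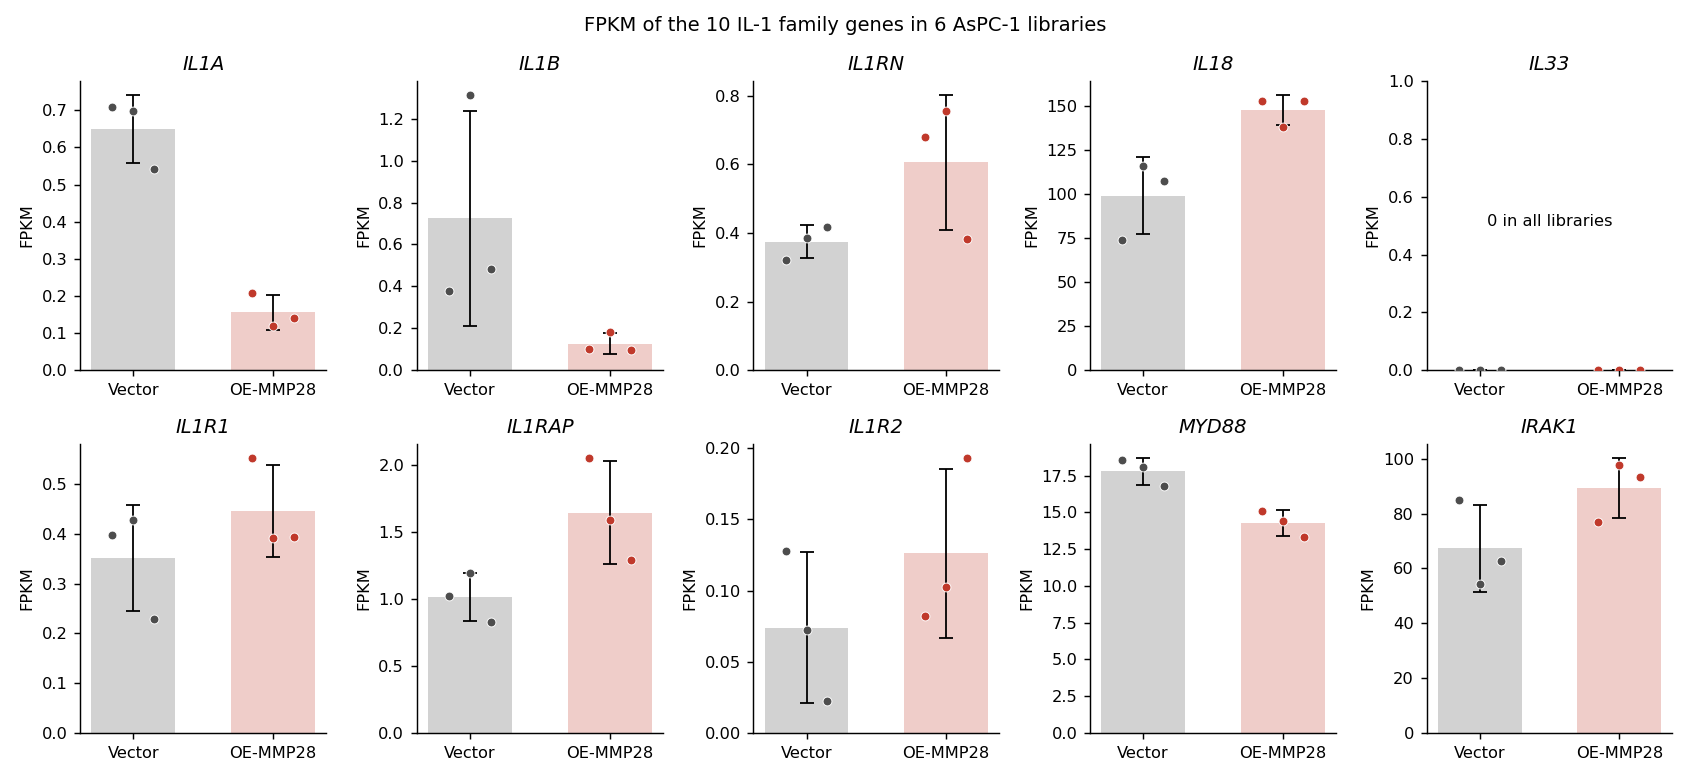
Each panel plots the FPKM of 1 gene in the 3 Vector libraries (grey) and the 3 OE-MMP28 libraries (red), in the order of their replicate numbers, with bars at the group mean and error bars of 1 SD, and every panel has its own linear axis from 0. IL1A, IL1B and MYD88 have all OE-MMP28 points below all Vector points, IL18 and IL1RAP have them above, and IL33 is at 0 in all 6 libraries.

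The libraries held between 13633249 and 16691458 counts, so that 3 counts, the upper limit that a count of 0 allows, equalled 0.180 to 0.220 CPM (counts scaled by each library's size). These limits and the intervals given for ratios of counts cover counting error only. MMP28, the gene carried by the virus, differed by 0.90 on the log2 scale (edgeR adjusted p = 0.00226), and its lowest OE-MMP28 library, at 13.1 FPKM, lay above its highest Vector library, at 9.11. All 6 epithelial marker genes examined (EPCAM, KRT7, KRT8, KRT18, KRT19 and CDH1) were tested, with summed levels of 2579 to 3520 FPKM in the Vector and 3517 to 4305 FPKM in the OE-MMP28 libraries. Most of that sum came from KRT8, KRT18 and KRT19, and of the 6 genes KRT19 was higher (log2 fold change 0.71, edgeR adjusted p = 0.00175) and CDH1 lower (-0.59, edgeR adjusted p = 0.0113). Of 7 leukocyte markers 2 were tested. LYZ was lower (log2 fold change -0.45, edgeR adjusted p = 0.0376), and CD14, with 17 to 30 counts per library, was not called. PTPRC, which encodes CD45, and CD163 had at most 1 count in any library. The other untested leukocyte markers, CD68, CSF1R and ITGAM, had at most 9. The summed leukocyte level, nearly all of it from LYZ, was 164 to 186 FPKM in the Vector and 106 to 146 FPKM in the OE-MMP28 libraries. The fibroblast marker COL1A2 and the endothelial marker CDH5 had at most 1 count in any library. The other untested fibroblast markers, COL1A1, DCN and PDGFRB, had at most 11. The endothelial marker PECAM1 had 0, 4 and 4 counts in the Vector and 13, 21 and 30 counts in the OE-MMP28 replicates (edgeR adjusted p = 0.00361). VWF, also endothelial, had 7 to 19 counts per library and was not called (edgeR adjusted p = 0.735). The summed fibroblast level, mostly from LUM, was 33.9 to 40.9 FPKM in the Vector and 39.3 to 57.0 FPKM in the OE-MMP28 libraries. The mitochondrial share of counts was 11.9 to 14.8% in the Vector and 8.8 to 11.9% in the OE-MMP28 libraries. Without mitochondrial genes in the counts, 2 members were again higher and 2 lower.

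IL1A and IL1B lie next to each other on the long arm of chromosome 2, and both fell. IL1A (ENSG00000115008, GRCh38, chromosome 2, 112773915 to 112784590, minus strand) encodes IL-1α, a cytokine that is active in its full-length form and often stays inside or on the cell. Its level was 0.708, 0.697 and 0.543 FPKM in Vector replicates 1, 2 and 3 and 0.208, 0.119 and 0.140 FPKM in OE-MMP28 replicates 1, 2 and 3. These values rest on 23, 20 and 17 counts against 7, 4 and 5 counts. The lowest Vector library was well above the highest OE-MMP28 library, so the groups did not overlap. The Vector mean was 0.649 ± 0.0922 FPKM (SD, n = 3), against an OE-MMP28 mean of 0.156 ± 0.0468 FPKM (SD, n = 3). The log2 fold change was -2.03 (SE 0.48, edgeR adjusted p = 0.00441), a fold of 4.07. With 1 library left out at a time it ranged from -2.29 to -1.88, with an adjusted p of at most 0.0318.

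IL1B (ENSG00000125538, chromosome 2, 112829751 to 112836903, minus strand) encodes IL-1β, the secreted cytokine that caspase-1 activates. Its level was 0.380, 1.31 and 0.482 FPKM in the Vector replicates, from 18, 55 and 22 counts. In the OE-MMP28 replicates it was 0.102, 0.183 and 0.0960 FPKM, from 5, 9 and 5 counts. Vector replicate 2 stood above the other Vector libraries, and the lowest Vector library still lay above every OE-MMP28 library. The Vector mean was 0.726 ± 0.512 FPKM (SD, n = 3), against 0.127 ± 0.0488 FPKM (SD, n = 3). The fold change was -2.47 on the log2 scale (SE 0.53, edgeR adjusted p = 0.00211), a fold of 5.53. Without Vector replicate 2 it was -1.73 with an adjusted p of 0.0268, the end of its range nearest to 0 when single libraries were left out. Of all genes tested, 0.842% had a log2 fold change of -2 or lower, and both IL-1 genes were among these 129 genes. In bulk RNA, fewer cells that make a transcript and less of it per cell cannot be told apart.

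The promoters of IL1A, IL1B and IL1RAP are shown because these 3 members changed in level and have a RefSeq start site. Each sequence gives the 250 bases before the start nearest the 5′ end of the gene model, from RefSeq on GRCh38.p14 and read along the strand of the gene, and 9 of the 10 members had such a window. Capitals mark matches, on either strand, to the AP-1 site (TGANTCA), the TATA box (TATAAA) and the NF-κB consensus.
IL1A promoter, chr2:112784494-112784743, minus strand: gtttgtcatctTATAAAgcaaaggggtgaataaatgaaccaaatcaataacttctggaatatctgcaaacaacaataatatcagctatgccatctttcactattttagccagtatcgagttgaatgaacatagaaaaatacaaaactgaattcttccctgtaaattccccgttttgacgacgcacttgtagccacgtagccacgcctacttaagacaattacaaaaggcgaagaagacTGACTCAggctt
IL1B promoter, chr2:112836780-112837029, minus strand: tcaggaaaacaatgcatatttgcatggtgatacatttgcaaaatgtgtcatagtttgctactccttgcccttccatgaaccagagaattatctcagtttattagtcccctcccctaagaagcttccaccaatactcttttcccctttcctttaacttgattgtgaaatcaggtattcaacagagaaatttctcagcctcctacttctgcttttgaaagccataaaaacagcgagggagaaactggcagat
IL1RAP promoter, chr3:190513835-190514084, plus strand: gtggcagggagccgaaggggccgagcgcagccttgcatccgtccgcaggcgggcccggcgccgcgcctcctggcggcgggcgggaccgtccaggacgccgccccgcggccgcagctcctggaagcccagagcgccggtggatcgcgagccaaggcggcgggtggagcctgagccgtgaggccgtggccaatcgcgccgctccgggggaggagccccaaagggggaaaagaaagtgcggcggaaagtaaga
The IL1A window held an AP-1 match that began 12 bases before the start and a TATA match 239 bases before it. The IL1B and IL1RAP windows held none of these letters. Among the windows not shown, that of IL1RN, which was not called, also held an AP-1 match, 223 bases before the start. The IRAK1 window held an NF-κB match, and that of IL1R2 an NF-κB and a TATA match. Those of IL33, IL1R1 and MYD88 held none. Of 35116 such windows over all RefSeq starts, 6.57% held an AP-1 match, 9.96% an NF-κB match and 10.7% a TATA match. The GC content was 37.6% for IL1A and 40% for IL1B, against 74.8% for IL1RAP and a median of 58% over all windows. Matches describe the letters and were not tested as sites.

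IL1RN (ENSG00000136689, chromosome 2, 113107214 to 113134016, plus strand), which encodes the IL-1 receptor antagonist and ends the same gene cluster, did not pass the test, and its estimate was positive. Its level was 0.321, 0.386 and 0.417 FPKM in the Vector replicates and 0.680, 0.756 and 0.383 FPKM in the OE-MMP28 replicates. OE-MMP28 replicates 1 and 2 were above all Vector libraries, and replicate 3 lay among them, so the groups overlapped. The edgeR estimate was 0.70 on the log2 scale (SE 0.38, edgeR adjusted p = 0.196), and none of the 17 alternative fits that held the gene called it. Antagonist and agonist RNA were also set against each other within each library. The summed FPKM of IL1A and IL1B was 1.09, 2.01 and 1.03 in the Vector replicates and 0.311, 0.302 and 0.236 in the OE-MMP28 replicates. The FPKM of IL1RN divided by that sum was 0.295, 0.192 and 0.407 in the Vector replicates and 2.19, 2.50 and 1.62 in the OE-MMP28 replicates. Agonist RNA exceeded antagonist RNA in all 3 Vector libraries, and the order was the opposite in all 3 OE-MMP28 libraries. The mean ratio was 0.298 ± 0.107 (SD, n = 3) against 2.10 ± 0.444 (SD, n = 3). The exact permutation test, taken on both sides, gave p = 0.1 for the ratio and for the sum, which is the smallest that 3 against 3 libraries allow.

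IL18 (ENSG00000150782, chromosome 11, 112143251 to 112164117, minus strand) encodes IL-18, an epithelial cytokine stored as a precursor, and it was by far the most abundant ligand of the family. Its level was 74.0, 116 and 107 FPKM in the Vector replicates and 153, 138 and 153 FPKM in the OE-MMP28 replicates. Every OE-MMP28 library was above every Vector library, and Vector replicate 1 was the lowest. The Vector mean was 99.0 ± 22.0 FPKM (SD, n = 3), and the OE-MMP28 mean 148 ± 8.43 FPKM (SD, n = 3). The rise was 0.59 on the log2 scale (SE 0.16, edgeR adjusted p = 0.0128). Without Vector replicate 1 it was 0.42 with an adjusted p of 0.0626. Genes around IL18 moved the same way, since the 42 genes tested within 5 Mb on each side had a median log2 fold change of 0.50. Of them 21 were higher and 1 lower, against 11.7% and 11.6% of all genes. With an offset for that local median the log2 fold change of IL18 was 0.091 with an adjusted p of 0.756 (edgeR). Of the summed FPKM of the 11 family ligands, the antagonists included, IL18 made up 94.0 ± 3.31% (SD, n = 3) in Vector libraries and 96.3 ± 0.346% (SD, n = 3) in OE-MMP28 libraries (exact permutation p = 0.3).

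IL33 (ENSG00000137033, chromosome 9, 6215786 to 6257983, plus strand), which encodes the nuclear alarmin IL-33, had a count of 0 in all 6 libraries. A level of up to 3 counts (0.220 CPM in the smallest library) remains possible, and no difference could be detected at this depth. Of the 6 other ligands of the family, which are the IL-36 group, IL37 and IL1F10, only IL37 was tested. IL37, singled out after its values were seen, is known as an anti-inflammatory member. It had 82, 35 and 29 counts in the Vector and 68, 55 and 64 counts in the OE-MMP28 replicates, and its log2 fold change was 0.23 (edgeR adjusted p = 0.662). IL36A, which encodes an epithelial agonist, and IL36RN, which encodes its antagonist, had a count of 0 in all libraries, and the remaining 3 genes had at most 5 counts in any library.

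Of the receptor chains, IL1RAP passed the test and IL1R1 did not. IL1RAP (ENSG00000196083, chromosome 3, 190514051 to 190659750, plus strand) encodes the accessory chain shared by the receptors of IL-1, IL-33 and the IL-36 cytokines. Its level was 1.02, 1.19 and 0.828 FPKM in the Vector replicates and 2.06, 1.59 and 1.29 FPKM in the OE-MMP28 replicates. The groups did not overlap, although OE-MMP28 replicate 3 lay close to Vector replicate 2. The Vector mean was 1.01 ± 0.182 FPKM (SD, n = 3), and the OE-MMP28 mean 1.65 ± 0.386 FPKM (SD, n = 3). The rise was 0.71 on the log2 scale (SE 0.20, edgeR adjusted p = 0.0163), a fold of 1.63. The call was lost without Vector replicate 3 (0.58, adjusted p = 0.0963), OE-MMP28 replicate 1 (0.51, adjusted p = 0.0928) or OE-MMP28 replicate 2 (0.72, adjusted p = 0.0603). The 40 genes tested around IL1RAP had a median log2 fold change of 0.40, with 15 higher and 1 lower, against 11.7% and 11.6% of all genes. With an offset for this local median IL1RAP had 0.30 and an adjusted p of 0.343 (edgeR). A noncoding gene on the same strand, AC108747.1, covers 4.63% of its exon length and had no counts.

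IL1R1 (ENSG00000115594, chromosome 2, 102064544 to 102179874, plus strand) encodes the signalling receptor of IL-1. Its level was 0.397, 0.428 and 0.230 FPKM in the Vector replicates and 0.553, 0.392 and 0.394 FPKM in the OE-MMP28 replicates, and the groups overlapped. The estimate was 0.35 on the log2 scale (SE 0.32, edgeR adjusted p = 0.453). IL1R2 (ENSG00000115590, chromosome 2, 101991844 to 102028544, plus strand), which encodes the decoy receptor, had 6, 3 and 1 counts in the Vector and 4, 5 and 10 counts in the OE-MMP28 replicates, too few to be tested. The FPKM of IL1RAP divided by that of IL1R1 was 2.58, 2.78 and 3.60 in the Vector and 3.72, 4.05 and 3.27 in the OE-MMP28 replicates, so these ratios overlapped (exact permutation p = 0.2). The accessory chain was thus the more abundant RNA in all 6 libraries.

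Below the receptor, neither member passed the test. MYD88 (ENSG00000172936, chromosome 3, 38138478 to 38143022, plus strand), which encodes the adaptor of IL-1 receptors and of most Toll-like receptors, had 18.6, 18.1 and 16.8 FPKM in the Vector and 15.1, 14.4 and 13.4 FPKM in the OE-MMP28 replicates. All OE-MMP28 libraries lay below all Vector libraries, and the spread within each group was small. The estimate was -0.31 on the log2 scale (SE 0.15), at an unadjusted p of 0.0497 and an edgeR adjusted p of 0.139. The adjusted p stayed above 0.05 in all 19 alternative fits. IRAK1 (ENSG00000184216, chromosome X, 154010500 to 154019980, minus strand), which encodes the kinase that the receptor complex activates, had 85.0, 54.2 and 62.8 FPKM in the Vector and 76.9, 97.8 and 93.5 FPKM in the OE-MMP28 replicates. Vector replicate 1 lay above OE-MMP28 replicate 1, so the groups overlapped. The estimate was 0.42 on the log2 scale (SE 0.17, edgeR adjusted p = 0.0761). Without Vector replicate 1 it was 0.62 with an adjusted p of 0.00918. MIR718, which had no counts, overlaps 1.52% of the exon length of IRAK1 on its own strand.

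**Figure D2:**
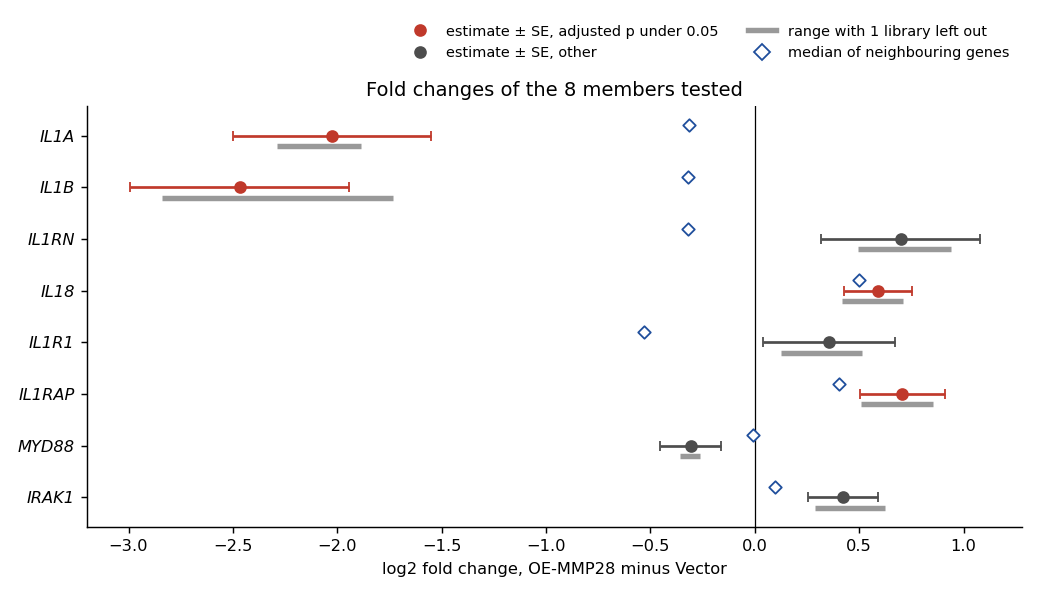
The log2 fold change of the 8 members tested, OE-MMP28 minus Vector, is plotted with its SE (edgeR), beside the range with 1 library left out at a time (grey bar) and the median log2 fold change of the genes tested within 5 Mb on each side (diamond). IL1A and IL1B lie far to the left of their neighbours' medians of -0.32, whereas IL18 lies beside its neighbours' median of 0.50.

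On chromosome 2 the family forms 2 clusters, and not all of their tested genes changed. The receptor cluster runs from IL1R2 to IL18RAP over 461 kb and the ligand cluster from IL1A to IL1RN over 360 kb, with 10.3 Mb between them. Of the 15 family genes in them 7 were tested. The 4 that were called, IL1A, IL1B, IL1RL1 and IL18R1, were lower, against 11.6% of all genes lower and 11.7% higher. The genes around both clusters were also lower on balance. The 50 genes tested within 5 Mb on each side of IL1B had a median log2 fold change of -0.32. By the adjusted p 0 were higher and 17 lower, against 11.7% and 11.6% of all genes. All 50 had a larger log2 fold change than IL1B. Around IL1A, 48 of 49 neighbours had a larger log2 fold change than the gene itself. IL1RN, by contrast, had a larger log2 fold change than all 54 of its neighbours, and IL1R1 than 52 of 54, against a local median of -0.53. Neither was called with the local-median offset, at 1.02 for IL1RN (edgeR adjusted p = 0.0755) and 0.88 for IL1R1 (edgeR adjusted p = 0.0640). DESeq2 and limma voom also called 2 members lower, and so did edgeR with the local-median offset.

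**Figure D3:**
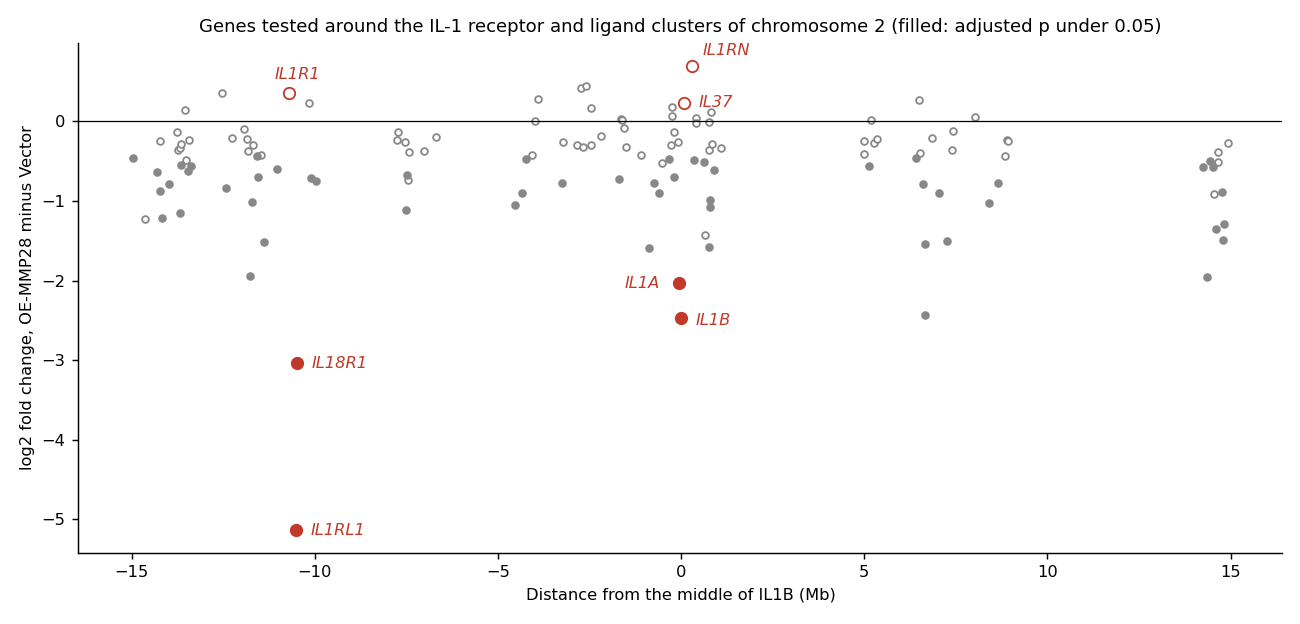
Each point is a gene tested on chromosome 2, placed by its distance in Mb from the middle of IL1B, with its log2 fold change on the vertical axis, IL-1 family genes in red and genes with an adjusted p under 0.05 filled. The receptor cluster lies to the left of the ligand cluster, with 10.3 Mb between them, and in both of them lower genes (IL18R1, IL1RL1, IL1A and IL1B) stand beside genes with estimates above 0 that did not pass the test (IL1R1, IL1RN and IL37), where the fitted value of IL1RL1 depends on the prior count because its OE-MMP28 counts are 2, 1 and 0.

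The other receptors and binding proteins of the family were then counted. Of 8 genes 5 were tested, 3 were lower, against 11.6% of all genes, and none was higher, against 11.7%. The median log2 fold change was -0.60, the value of SIGIRR. IL1RL1 (ENSG00000115602), which encodes ST2, the receptor of IL-33, had 60, 29 and 19 counts in the Vector replicates and 2, 1 and 0 counts in the OE-MMP28 replicates. The groups were far apart, and the edgeR adjusted p was 2.5e-05. The summed counts were 108 against 3, and the level scaled to library totals was 40.3 times as high in the Vector group (95% interval 13.4 to 199, exact, counting error only). IL18R1 (ENSG00000115604), which encodes the chain of the IL-18 receptor that binds the cytokine, had 0.646, 1.39 and 1.06 FPKM in the Vector and 0.0436, 0.159 and 0.164 FPKM in the OE-MMP28 replicates. These levels rest on 43, 82 and 68 counts against 3, 11 and 12 counts. The groups did not overlap, and the log2 fold change was -3.04 (SE 0.43, edgeR adjusted p = 4.53e-05), a fold of 8.20. IL1RL1 and IL18R1 lie on the same strand and share 95 exon bases, which is 1.65% of the exon length of IL1RL1 and 2.18% of that of IL18R1.

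The second chain of the IL-18 receptor, IL18RAP, had 0, 3 and 0 counts in the Vector and 1, 0 and 1 counts in the OE-MMP28 replicates, and IL1RL2, which encodes the IL-36 receptor, had none. IL18, the ligand, was higher in the OE-MMP28 libraries, the 3 with the lowest IL18R1 levels. A relation between ligand and receptor RNA was not tested. SIGIRR, which encodes an inhibitory receptor of the family, fell from a Vector mean of 13.6 ± 3.04 FPKM (SD, n = 3) to an OE-MMP28 mean of 8.89 ± 2.77 FPKM (SD, n = 3). The difference was -0.60 on the log2 scale (edgeR adjusted p = 0.0497), and it was not called when any library other than Vector replicate 1 was left out, with values from -0.75 to -0.38. IL18BP, which encodes the soluble inhibitor of IL-18 and was singled out after its values were seen, had a log2 fold change of -0.013 (edgeR adjusted p = 0.972).

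**Figure D4:**
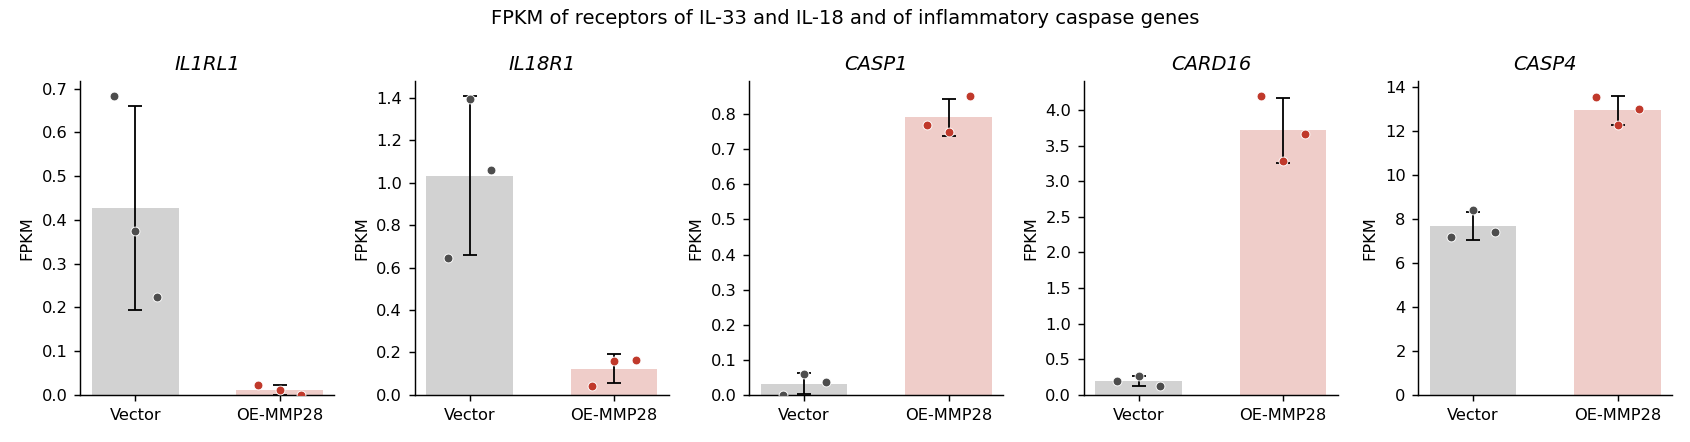
FPKM of 5 genes in the 3 Vector libraries (grey) and the 3 OE-MMP28 libraries (red), with bars at the group mean, error bars of 1 SD and a linear axis from 0 in each panel. The receptor genes IL1RL1 and IL18R1 are low in all OE-MMP28 libraries, whereas CASP1 and CARD16 are near 0 in the Vector libraries and CASP4 rises from a mean of 7.67 to 12.9 FPKM.

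Of the 16 genes that process and release IL-1 and IL-18, 12 were tested. By the adjusted p 5 were higher, against 11.7% of all genes, and none was lower, against 11.6%. The median log2 fold change was 0.32, and genes that did not pass the test had values on both sides of 0. CASP1 (ENSG00000137752), which encodes the protease that matures IL-1β and IL-18, had 0, 3 and 2 counts in the Vector and 45, 44 and 53 counts in the OE-MMP28 replicates. All OE-MMP28 libraries were far above the Vector libraries (edgeR adjusted p = 8.56e-06), and the level scaled to library totals was 25.4 times as high (95% interval 10.6 to 79.3, exact, counting error only). CARD16, a neighbour of CASP1 that resembles its recruitment domain and is known to inhibit it, had 5, 6 and 3 counts against 112, 88 and 104 counts. Its log2 fold change was 4.26 (SE 0.37, edgeR adjusted p = 1.07e-07). Whether reads of CARD16 and CASP1 were counted for each other was not tested. CASP4, which encodes the caspase that senses intracellular lipopolysaccharide, rose from a Vector mean of 7.67 ± 0.653 FPKM (SD, n = 3) to an OE-MMP28 mean of 12.9 ± 0.652 FPKM (SD, n = 3), a rise of 0.76 on the log2 scale (SE 0.15, edgeR adjusted p = 0.00101).

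The caspase genes and CARD16 lie on the same chromosome arm as IL18. The 37 genes tested around CASP1 had a median log2 fold change of 0.50, with 15 higher and 0 lower, against 11.7% and 11.6% of all genes. With the local-median offset CASP1 and CARD16 were still called as higher (edgeR adjusted p = 5.12e-05 and 7.77e-07). CASP4 was not, at 0.26 on the log2 scale (edgeR adjusted p = 0.251). CASP5, singled out after its values were seen, was not tested, with 0, 1 and 1 counts against 7, 5 and 5 counts. NLRP1, which encodes an inflammasome sensor, had 7, 9 and 12 counts against 21, 24 and 28 counts and a log2 fold change of 1.22 (edgeR adjusted p = 0.0407). The call of NLRP1 was lost whichever library was left out, with values from 1.02 to 1.43. S100A13, which encodes a protein that takes part in the export of IL-1α, had a log2 fold change of 0.49 (edgeR adjusted p = 0.0441) and was not called in 13 of 19 alternative fits. Its exons are shared with AL162258.1 on the same strand over 24.2% of their length and with S100A1 on the other strand over 10.6%. AIM2, which encodes a sensor of DNA, and the CASP1 relatives CARD17 and CARD18 had a count of 0 in all libraries.

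Of the other signalling genes below the receptor, all 18 were tested, 1 was higher and none lower, against 23.4% of all genes called in either direction. Their median log2 fold change was -0.078. ECSIT, which encodes an adaptor of Toll-like and IL-1 signalling that also serves the assembly of mitochondrial complex I, rose from a Vector mean of 5.31 ± 0.463 FPKM (SD, n = 3) to an OE-MMP28 mean of 8.79 ± 2.15 FPKM (SD, n = 3). The rise was 0.74 on the log2 scale (SE 0.20, edgeR adjusted p = 0.0119). The call was lost without OE-MMP28 replicate 2 (0.64, adjusted p = 0.0825) or OE-MMP28 replicate 3 (0.61, adjusted p = 0.0705).

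Of the 28 genes of NF-κB and genes known to respond to IL-1, 20 were tested. The test called 4 as higher, against 11.7% of all genes, and 4 as lower, against 11.6%, and the median log2 fold change was -0.040. Among the higher genes, LIF, which encodes a cytokine of the IL-6 family, rose from a Vector mean of 17.3 ± 1.43 FPKM (SD, n = 3) to an OE-MMP28 mean of 39.4 ± 4.37 FPKM (SD, n = 3), a rise of 1.20 on the log2 scale (SE 0.15, edgeR adjusted p = 1.37e-05). AC004264.1 on the other strand, with up to 77 counts, overlaps 4.41% of the exon length of LIF. The chemokine gene CCL20 rose from 3.00 ± 0.831 to 5.98 ± 1.06 FPKM (SD, n = 3 each), with a log2 fold change of 1.01 (edgeR adjusted p = 0.00572). TNFAIP2, a gene induced by tumour necrosis factor, had a log2 fold change of 0.86 (edgeR adjusted p = 0.00139), and 0.34 with the offset for its neighbours (adjusted p = 0.197). NFKBIA, which encodes the NF-κB inhibitor IκBα, had a log2 fold change of 0.44 (edgeR adjusted p = 0.0468), but with such an offset it was -0.12 (adjusted p = 0.673). The call of NFKBIA held in 3 of 19 alternative fits.

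Among the lower genes, NFKB2, which encodes the p100 precursor of the alternative NF-κB pathway, fell from 12.3 ± 0.757 to 5.87 ± 0.937 FPKM (SD, n = 3 each), a log2 fold change of -1.05 (SE 0.17, edgeR adjusted p = 0.000169). It was called in all 19 alternative fits. REL, which encodes the subunit c-Rel, had a log2 fold change of -1.06 (edgeR adjusted p = 0.00534), but with the offset for its neighbours it was -0.61 (adjusted p = 0.112). The 3 limma fits on FPKM did not call REL either, and AC010733.2 on the same strand, with no counts, covers 43.3% of its exons. SOD2, which encodes the mitochondrial superoxide dismutase, had a log2 fold change of -0.57 (edgeR adjusted p = 0.00939), and without OE-MMP28 replicate 2 it was -0.55 with an adjusted p of 0.0661. WTAP on the other strand, with up to 1455 counts, overlaps 1.81% of the exon length of SOD2. The chemokine gene CXCL1 had 16, 55 and 34 counts in the Vector and 16, 18 and 15 counts in the OE-MMP28 replicates, so the groups overlapped although the test called it (log2 fold change -1.26, edgeR adjusted p = 0.0414). Without Vector replicate 2, the library that was also highest for IL1B, CXCL1 had -0.71 with an adjusted p of 0.307. Leaving out any other library except Vector replicate 1 also ended the call of CXCL1, with an adjusted p of 0.0672 to 0.131. IL6, CXCL6 and CSF3, which encode a cytokine, a chemokine and a colony-stimulating factor, had a count of 0 in all libraries.

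**Figure D5:**
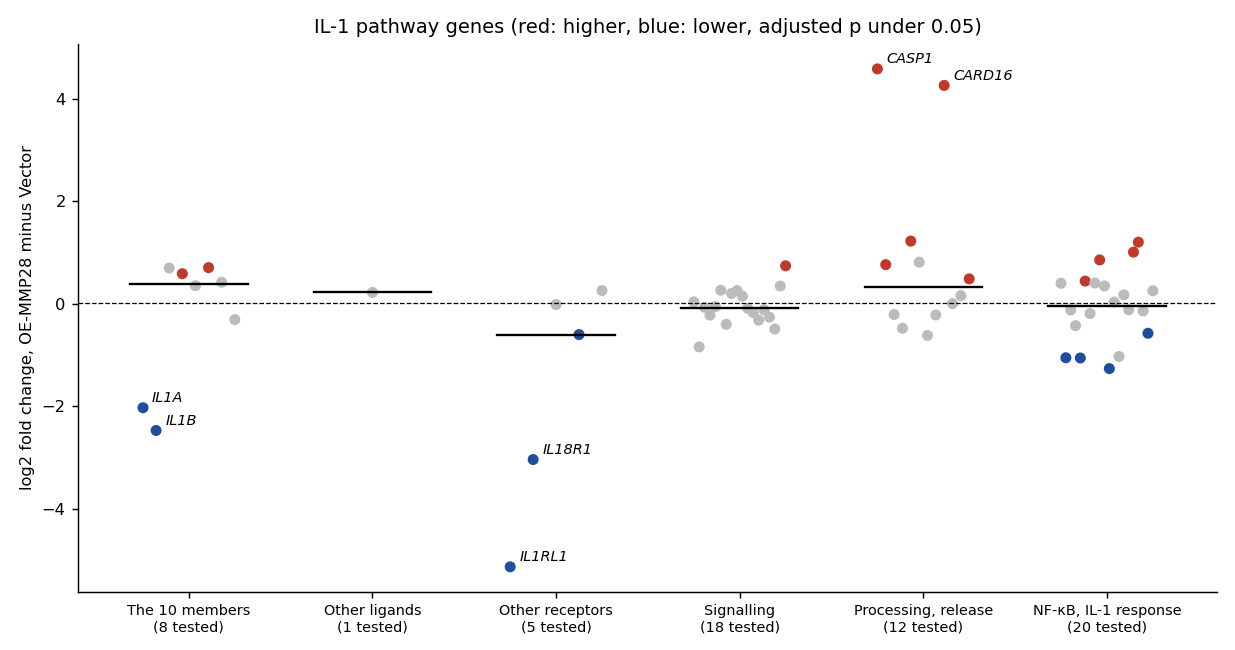
The log2 fold change of each gene tested, OE-MMP28 minus Vector, is plotted by gene list (red higher, blue lower by an edgeR adjusted p under 0.05, grey other), with a bar at the median of each list. The receptor list has its 3 called genes below 0, the processing list has its 5 called genes above 0, and the NF-κB list has 4 on each side, where the fitted values of IL1RL1 and CASP1 depend on the prior count because 1 group of each has at most 3 counts per library.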

How the data were processed

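The authors deposited 1 table with raw read counts per gene and library, as whole numbers, and FPKM values, which the authors scaled to gene length and library size. Per the labels, libraries were made from 1 µg of total RNA with the NEBNext Ultra RNA kit. The submitters' processing notes name HISAT2 2.0.5 and featureCounts 1.5.0-p3, while the strand setting and the treatment of multi-mapped reads are not given in the sources used here. All 58735 gene IDs, starts and ends equalled GENCODE release 29 (GRCh38). The table's group means, log2 fold changes and p-values of the authors' own comparison were not used.

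Groups came from the sample labels. Counts were tested with edgeR 4.0.16 (R 4.3.3, quasi-likelihood, TMM scaling, group alone) after filterByExpr (minimum count 10, minimum total 15), which kept 15319 genes, and p-values were adjusted over these by Benjamini-Hochberg. The code was tested on simulated data. Single ratios were compared by exact permutation (scipy 1.17.1). Alternatives were 19 other fits, among them DESeq2 1.42.0, limma 3.58.1 (voom, or log2(FPKM + 1) and log2(FPKM + 0.1) where a gene averaged 0.5 FPKM or more), an offset for the median log2 fold change of genes within 5 Mb, and each library left out, besides 1 other threshold. Chi-square comparison of the counts found no duplicated library.

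The members, the 76 genes of 5 pathway lists and the markers were chosen with earlier results of these data known. All 10 members were named, and from each list up to 8 called genes, genes at 0 throughout, CASP1 and IL1RL1. Of 2 table entries named SOD2, the one with more reads (ENSG00000112096) was used.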

Additional observations from a re-analysis of the deposited data

How the results depend on the processing

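Of 144 values of the 8 members tested under the alternatives, 129 kept their direction and their side of the threshold, 13 lost the call, 2 gained it and 0 reversed. The 2 higher members became 0 with the local-median offset and in the 3 limma fits on FPKM, and 1 to 2 with 1 library left out. Without Vector replicate 1 the 2 were IL1RAP (edgeR adjusted p = 0.0218) and IRAK1 (edgeR adjusted p = 0.00918), and IL18 was not called (edgeR adjusted p = 0.0626). The 2 lower members became 0 in limma on log2(FPKM + 1) and log2(FPKM + 0.1), whose filter on low values leaves IL1A and IL1B out, and 1 without that filter, where IL1B had -0.58 (adjusted p = 0.210). At the threshold of the study the 2 members became 0 in the 3 limma fits on FPKM, but these fits could not have called IL1A and IL1B. With the filter both genes were left out. Without it, a pseudocount of 1 on Vector means of 0.649 and 0.726 FPKM holds a fall under 1 on the log2 scale. The estimates were -0.51 for IL1A and -0.58 for IL1B. The 2 members became 4 at an adjusted p under 0.05 with a fold over 1.5. IL18 had 0.091 with the local-median offset, 0.60 in the 3 limma fits on FPKM (adjusted p 0.0612 to 0.154) and 0.42 to 0.71 with 1 library left out. IL1RAP had 0.30 with the offset, 0.39 and 0.64 in limma on FPKM with a pseudocount of 1 and 0.1 (adjusted p 0.133 to 0.294), and 0.51 to 0.85 with 1 library left out, and IRAK1 then had 0.29 to 0.62. Of 336 values of 18 other genes 76 lost the call and 1 reversed, NFKBIA at -0.12 with the offset. The causes were not tested. Over all genes, 1795 were higher and 1784 lower, against 1136 and 1232 with the offset, 1009 and 965 in limma on log2(FPKM + 1), 1000 and 970 with a pseudocount of 0.1, 362 and 308 without the filter, 985 and 1044 without OE-MMP28 replicate 2, and 1136 and 1231 without Vector replicate 3.

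Libraries of the same replicate number did not deviate together (r = 0.0168, 0.00798 and -0.0876 over 15319 genes). The highest correlation of each library was with another number. With 3 libraries per group this cannot exclude a pairing, and the main fit used none. With the replicate block, 1844 genes were higher and 1841 lower, and 3 members were higher and 2 lower, with IRAK1 at 0.44 (adjusted p = 0.0487). For genes with at most 23 counts in any library, such as IL1A and IL1R2, counting error limits what can be detected.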
